A study of Mus musculus with 42 samples.

Results

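The genes described here are the nuclear genes of oxidative phosphorylation: every gene of the stage table whose symbol begins with Nduf, Uqcr or Atp5, or with Cox followed by a digit from 4 to 8. The rule found 88 of 24083 genes. Of these, 36 encode subunits of complex I and 7 encode complex I assembly factors. Complex III has 8 genes, complex IV 20 and complex V, the ATP synthase, 15, and 2 more (Atp5s and Atp5sl) are related to the ATP synthase by name. Ndufa4 and Ndufa4l2 were counted with complex IV, where the Ndufa4 protein is found. Each of these complexes also has subunits encoded in mitochondrial DNA, and none of those was analysed here. All members could be placed on a chromosome, 85 on autosomes and 3 on the X (Cox7b, Ndufa1 and Ndufb11).

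Oxidative phosphorylation takes electrons from nutrients and passes them to oxygen in the inner mitochondrial membrane. Complex I oxidises NADH, complex III hands electrons to cytochrome c and complex IV reduces oxygen, and each of the 3 pumps protons out of the matrix. The ATP synthase lets the protons back in through a ring of c subunits, whose rotation drives ATP synthesis in the F1 head. Cleavage-stage mouse embryos live mainly on pyruvate and oxidative metabolism, while glucose use and glycolysis rise from the blastocyst onward.

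Smart-seq2, a full-length method for polyadenylated RNA, was used to read the expression of each parental allele in 42 mouse samples. The stage table and the morula table hold embryos of the cross labelled C57BL/6N X PWK/PhJ, with PWK/PhJ as the paternal strain. The stage table holds wild-type females: 8-cell embryos (3 samples), morulae (3), inner cell mass (ICM, 2) and trophectoderm (TE, 3) at embryonic day (E) 3.5, epiblast (Epi, 1), visceral endoderm (VE, 3) and extraembryonic ectoderm (ExE, 2) at E6.5, and yolk sac (1) at E9.5. The morula table holds wild-type control male morulae (4), wild-type control female morulae (3) and female morulae labelled Xp XRRa KO (4), a deletion on the paternal X. The EedmNull table holds X-linked genes only, in ExE at E7.5 from 13 female embryos named EedmNull, from Eedfl/fl;Gdf9-Cre mothers and wild-type PWK/PhJ fathers. Gdf9-Cre acts in the growing oocyte, so these embryos lack maternally supplied Eed, a core subunit of the Polycomb complex PRC2, and inherit a functional paternal copy. PWK/PhJ was the father in every cross, so that parent and strain cannot be told apart in any share below.

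Values are FPKM (fragments scaled to transcript length and to the size of the library), listed for each allele, and a level below is the sum of both alleles. The authors pooled the samples of a group into 1 column per allele in the stage and morula tables. These columns give no spread between embryos, and no difference between them was tested. A gene is called higher or lower where it reached 5 FPKM in either column and its ratio on FPKM plus 1 was at least 2. All log2 ratios below are on that scale. The files give no read counts, so depth is unknown. Between 37.3% of genes (ExE) and 55.4% (8-cell) were listed at 0, against 81.3% in yolk sac. Tissue markers followed the labels: the 6 VE markers summed to 2748 FPKM in VE and 6041 in yolk sac, and the 6 extraembryonic ectoderm markers to 308 in ExE against 2.05 in VE. Markers of another tissue were also present in several columns. The 6 trophectoderm markers summed to 3755 FPKM in TE, 1196 in ICM, 663 in VE and 525 in ExE, the 6 pluripotency markers to 937 in ICM, 586 in Epi, 326 in ExE and 129 in TE, and the 6 VE markers to 238 in ExE. Single genes made up much of some sums: Utf1 was at 276 FPKM in ExE and Krt18, a trophectoderm marker, at 316 in VE. Of the 6 trophectoderm markers, 3 reached 1 FPKM in VE and all 6 did in ICM and ExE. The part of these markers in the ratios below was not tested. In any of these bulk columns, fewer cells of a type and less RNA per cell cannot be told apart.

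Members listed above 0 were mostly abundant. Of the 88, 78 reached 5 FPKM in at least 1 stage column and 64 did so in all 7 stage columns other than yolk sac. Among genes at 1 FPKM or more, of which members number 35 in yolk sac, the median member stood at percentile 91.9 in morulae, the lowest of the 11 columns, and at 96.9 in VE, the highest. The members took 3.92% of all FPKM in 8-cell embryos, 3.10% in morulae, 4.94% in ICM and 5.49% in TE. At E6.5 they took 3.99% in Epi, 4.24% in VE and 4.22% in ExE, and in the E9.5 yolk sac 3.49%. Of the preimplantation columns, morula was thus lowest and TE highest. TE was also the stage column, yolk sac aside, in which most members had their highest level: 25 members, against 15 in 8-cell, 11 in ICM, 10 in ExE, 9 in Epi and 8 in VE, while 10 stayed below 1 FPKM. Of the 10 in ExE, 6 were listed at 0 in every other column. Atp5l, counted in VE, was above 0 only in VE and ExE. These genes also enter the percentages of FPKM in those columns.

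**Figure D1:**
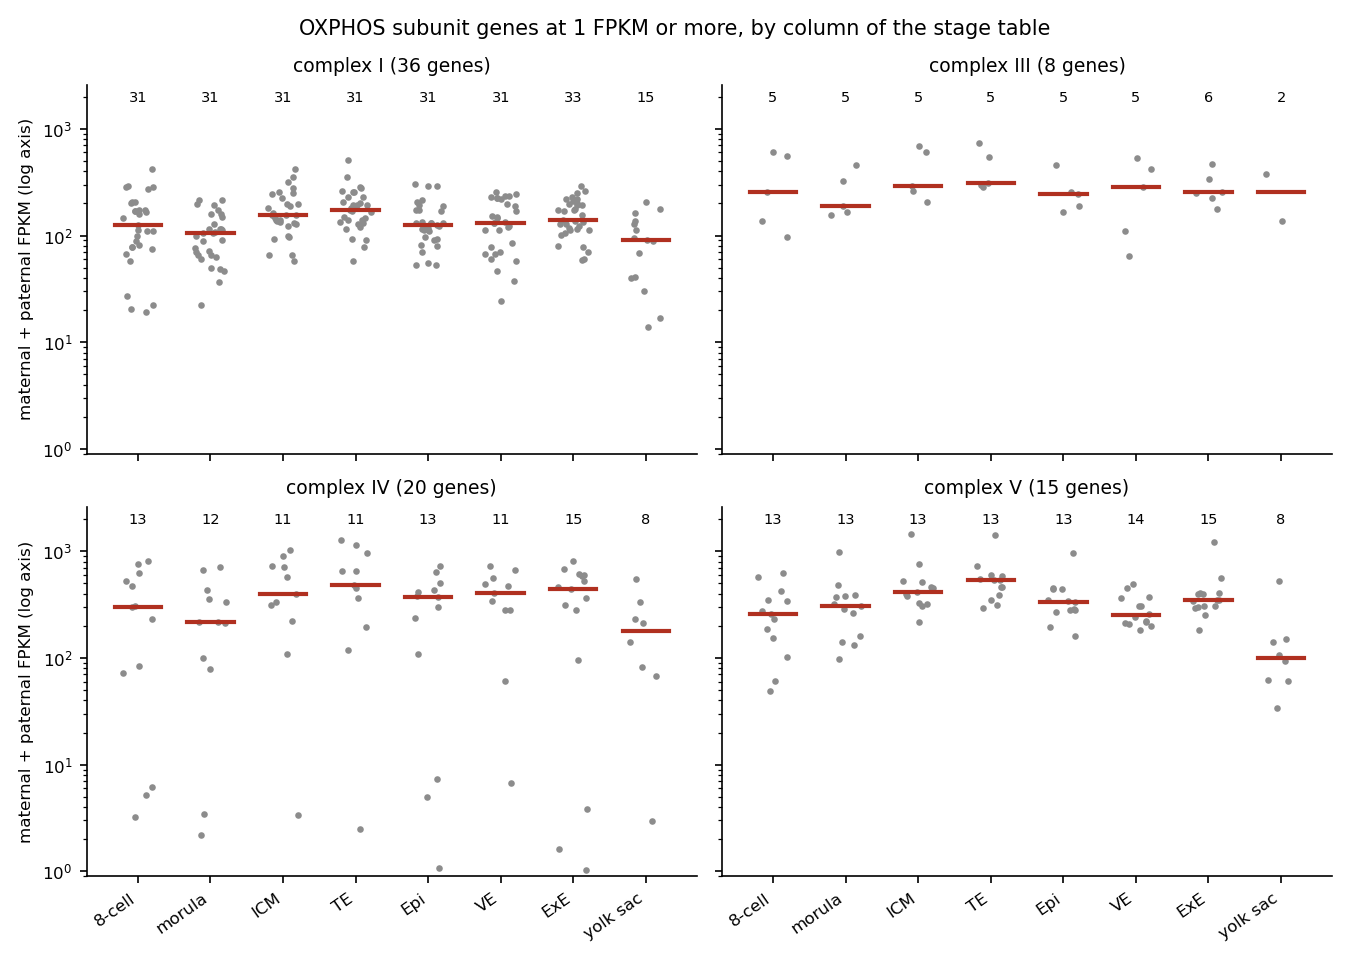
Level of each member (grey points, FPKM on a log axis) in the 8 columns of the stage table, by complex, with the median of the members drawn (red bars) and their number at 1 FPKM or more above each column. Outside yolk sac the medians of complexes I, III and IV are lowest in morula (105, 191 and 217 FPKM), and the points of complex IV below 10 FPKM are tissue isoforms.

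FPKM is scaled to transcript length, but how reads were assigned to alleles, or counted where they fit several genes, is not given. Levels of different genes are therefore set side by side only roughly. Of the 4 complexes, complex I had the lowest median in each of the 8 stage columns, with 126 FPKM in 8-cell, 105 in morula, 154 in ICM and 174 in TE. Complex IV had 302, 217, 397 and 486 in the same columns, and complex V had 259, 307, 419 and 537. Complex V was the exception among the 4, with a higher median in morula than in 8-cell. Atp5b, the catalytic beta subunit of F1, was the highest member of all in morula (989 FPKM), ICM (1447), TE (1422), Epi (966) and ExE (1206). In 8-cell the highest was Cox6c (814), a small complex IV subunit, and in VE it was Ndufa4 (731). The lowest complex I member was Ndufs1, the large iron-sulphur subunit of the electron-input arm, in 8-cell (19.1), VE (24.5) and ExE (58.9). The 6 measured assembly factors, which help build complex I without staying in it, had medians from 12.4 FPKM (VE) to 22.8 (Epi) in the stage columns other than yolk sac.

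Some members were listed at 0 where neighbours in the same complex were abundant. Ndufa9, Ndufb7, Ndufb10, Uqcrc2, Uqcrh, Ndufaf7 and the tissue isoforms Cox7a1 and Cox8b were at 0 in all 11 columns. Uqcrc2 is a core subunit of complex III, so its 0 stands beside 191 FPKM of its partner Uqcrc1 in morula. A further 6 were at 0 in every column but ExE and high there: Atp5k at 297 FPKM, Cox6b1 at 609, Cox8a at 680, Ndufab1 at 211, Ndufb6 at 201 and Uqcr11 at 250. Their values in ExE were mostly from a single allele. Atp5k, Cox6b1 and Uqcr11 had a paternal share of 0%, Cox8a 100% and Ndufab1 97.6%, and only Ndufb6 had both alleles in quantity (33.3%). Atp5l, a small membrane subunit of the ATP synthase, was listed only in VE and ExE, at 259 and 253 FPKM, with a paternal share of 0% in VE and 96.9% in ExE. No fold is given for a gene against a column where it is listed at 0. Such genes do enter the counts of higher and lower members and the medians over members below, and the counts over members above 0 in both columns are given beside them. What separates the columns in which they are listed from the others was not tested. Genes outside the members were also listed only in ExE, among them Aldoa (1232 FPKM), Mrpl18 (177) and Mrps18b (139).

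From 8-cell to morula, 20 of 24 supernumerary subunits of complex I and the 3 small subunits of complex III were lower (32.1% of all genes). Higher were 4 of 5 F1 subunits and 5 of 7 core subunits of complex I (67.9% of all genes). Of each, 3 were higher by at least 2-fold (31.9% of all genes). The share of core subunits that were higher, 71.4%, was thus near that of all genes. Atp5b went from 340 to 989 FPKM, a log2 ratio of 1.54. Atp5d, the delta subunit of the F1 central stalk, went from 101 to 323 FPKM (1.67), and Atp5a1, the alpha subunit that forms the F1 head with beta, from 152 to 390. In complex I, Ndufv1, which binds NADH and flavin, went from 27.0 to 72.2 FPKM (1.39). The c-subunit gene Atp5g2 went from 49.3 to 132 FPKM (1.40). Against these, the supernumerary subunit Ndufa12 went from 416 to 195 FPKM (-1.09) and the assembly factor Ndufaf5 from 7.87 to 3.42 (-1.004).

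By role, the contrast ran across complexes. The 5 members of the F1 head and central stalk had a median log2 ratio of 1.35, with Atp5c1 near 0 (275 to 289 FPKM) and Atp5e lower (186 to 142). The 7 core subunits of complex I had 0.33, below the median of all genes, and the 2 measured core or Rieske subunits of complex III 0.63. The 24 measured supernumerary subunits of complex I had a median of -0.62 and the 3 small subunits of complex III -0.70. Over all 69 members that met 5 FPKM the median was -0.39 (95% interval over genes, -0.53 to -0.08), against 0.49 over all 5541 genes. By the 2-fold rule 7 members were higher, where 31.9% of all genes were, and 3 were lower, where 6.21% of all genes were. The count of lower members was 11 with each column scaled to the same sum and 27 relative to the median of all genes, so it depends on the scaling. The 3 were Ndufa12, Ndufaf5 and the isoform Cox7b2, listed at 0 in morula.

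**Figure D2:**
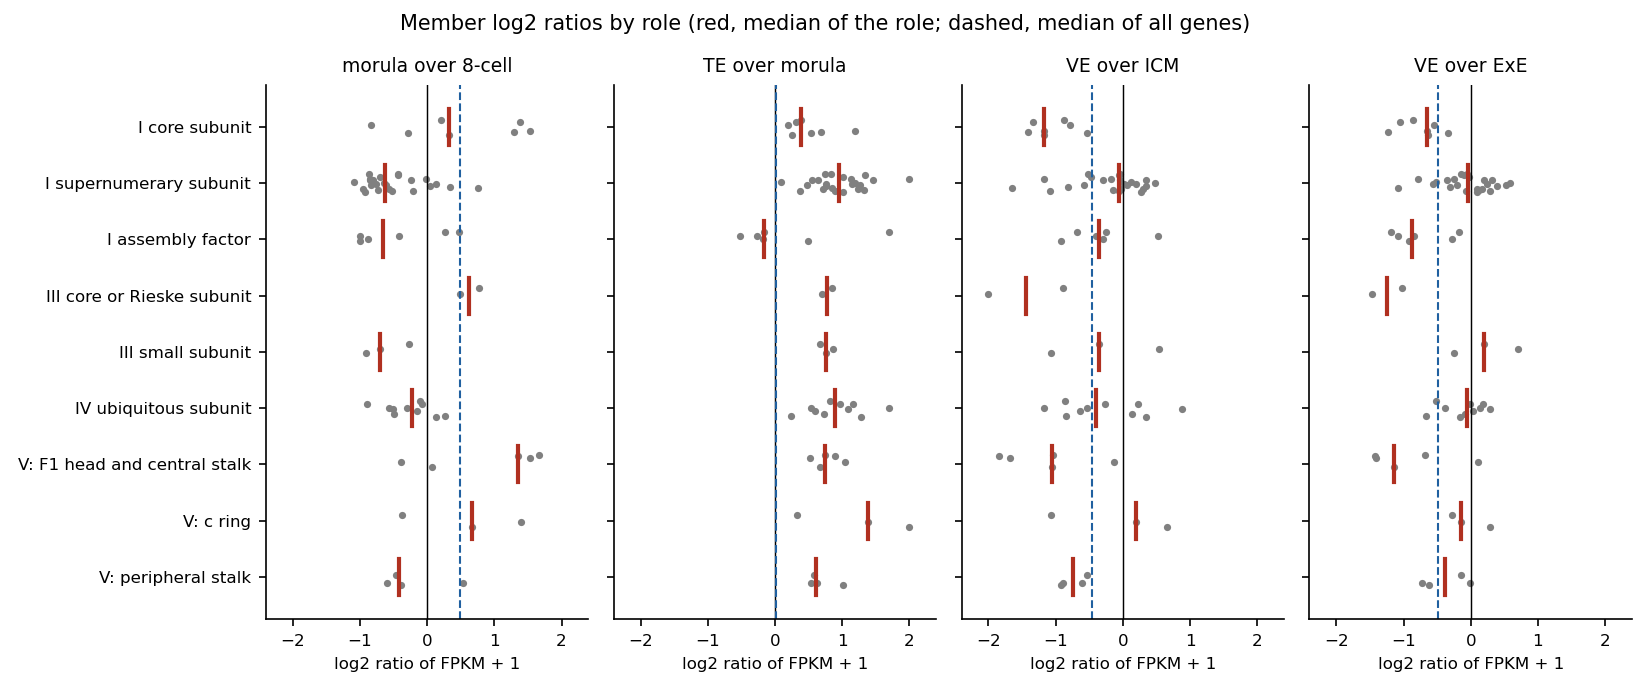
Log2 ratio of FPKM plus 1 for each member above 0 in both columns (grey points, 1 row per role) in 4 comparisons, with the median of the role (red) and of all genes (dashed). Of the F1 subunits 4 of 5 lie right of 0 in morula over 8-cell, with a median of 1.35, and all 5 left of 0 in VE over ICM, with a median of -1.06, while complex I supernumerary subunits have medians of -0.62 and -0.05.

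Transcript length moved with this contrast. Of the members 86 have an annotated length, with a median of 756.5 bases against 2484 for all genes, and the small subunits are the shortest. In morula over 8-cell the 161 other genes of 750 bases or shorter had a median log2 ratio of -0.43, close to the -0.52 of the 28 members of that length. Other genes of over 1500 to 2500 bases had a median of 0.60, and the 9 members of that length 0.76. Between these lengths members lay below other genes. At over 750 to 1000 bases members had -0.46 and other genes -0.16, and at over 1000 to 1500 bases -0.11 and 0.12. The 3 members longer than 2500 bases had -0.37, against 0.75 for other genes. With members of at least 1000 bases alone, the median over members was 0.17, above 0. The part of transcript length in the difference was not tested. The columns are pools of 3 samples each, and the groups' handling cannot be told apart from their stage.

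From morula to the blastocyst the members were higher as a group in both lineages. The comparisons share the morula column, so their values are given side by side and not counted as 2 results. Ndufs4, an accessory subunit at the electron-input arm of complex I, was at 22.3 FPKM in morula, 65.7 in ICM and 91.9 in TE, log2 ratios of 1.52 and 2.00. Atp5g3 was at 96.9 FPKM in morula, 309 in ICM and 389 in TE (1.66 and 1.99). The assembly factor Ndufaf3 was at 6.09, 23.2 and 22.1 FPKM (1.77 and 1.70). Cox5a, a subunit of complex IV, reached 1148 FPKM in TE from 353 in morula (1.70), and Ndufa6 went from 69.6 to 193 (1.46). In ICM, Cox7b went from 79.5 to 221 FPKM (1.47). Atp5s went the other way in TE, from 10.1 to 4.25 FPKM (-1.08).

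The higher level held across the complexes. In ICM 64 of 67 measured members were above their morula level, where 56.4% of all genes were. The median over members was 0.66 (interval over genes, 0.55 to 0.78) against 0.14 for all genes. In TE 62 of 67 members were above their morula level, where 50.7% of all genes were, with a median of 0.75 (0.67 to 0.89) against 0.02. At least 2-fold higher were 14 members in ICM, where 18.2% of all genes were, and 22 in TE, where 22% were. The 14 became 9 relative to all genes and 7 relative to genes of the same length class. At least 2-fold lower were 0 members in ICM (10.4% of all genes) and 1, Atp5s, in TE (17.3%). Nearly all measured members were thus above their morula level, most of them by less than 2-fold. Medians by complex in TE were 0.83 for complex I, 0.76 for complex III, 0.89 for complex IV and 0.74 for complex V, while the 6 complex I assembly factors named Nduf had -0.17 (interval over genes, -0.53 to 1.70) and 8 complex I assembly factors of other names 0.52.

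Transcript length moved little with these ratios. In TE over morula the 165 other genes of 750 bases or shorter had a median of 0.15, against 0.80 for the 26 members of that length, and the 1760 other genes of over 1500 to 2500 bases had -0.07, against 0.84 for 9 members. Other mitochondrial gene lists, fixed by name, differed among themselves. The 69 measured mitochondrial ribosomal protein genes had medians of 0.05 in ICM and -0.08 in TE over morula. The 13 genes of the tricarboxylic acid cycle, which feeds NADH to complex I, had 0.48 and 0.89, with 4 and 6 of them at least 2-fold higher. The 3 measured complex II genes had 0.96 and 0.99. Assembly factors of complexes III, IV and V had 0.09 and 0.23, and nuclear regulators of mitochondrial genes, a list with Nrf1 and Gabpa, 0.03 and -0.04. Genes of mitochondrial DNA maintenance and transcription had 0.02 and -0.49. The 5 measured genes of pyruvate entry into mitochondria went the other way, with -0.78 and -0.72 and 2 of 5 at least 2-fold lower in each. The 14 measured glycolysis genes in ICM had a median of 1.85 and the 12 in TE 2.28. The morula column that serves as the base of these ratios is itself low: members took 3.10% of FPKM there, against 4.69% in the control female morulae of the other table, which was normalized separately.

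Within the blastocyst and into the epiblast, differences were small. ICM over TE had a median of -0.10 (interval over genes, -0.23 to 0.01) over 67 members, with 1 of them at least 2-fold higher, Atp5s at 11.9 against 4.25 FPKM (1.30), where 13% of all genes were, and 0 lower (11.8%). Epi over ICM had -0.27 against -0.26 for all genes. At least 2-fold lower in Epi were 5 members, where 28.3% of all genes were, and 1 was higher (14.2%). The 5 were Ndufb11 (141 to 53.0 FPKM, -1.40), Ndufs5 (277 to 110, -1.32), Uqcr10 (600 to 254, -1.24), Atp5d (450 to 194, -1.21) and Cox6c (910 to 410, -1.15), small subunits of complexes I, III and IV and a stalk subunit of complex V. The 1 higher was Ndufa4l2, an isoform of Ndufa4 known for its induction by hypoxia, at 5.01 FPKM in Epi and listed at 0 in ICM. Epi is a single sample.

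VE had lower levels than ICM of all 5 F1 subunits and all 7 core subunits of complex I. All 4 peripheral stalk subunits of the ATP synthase were lower as well, while the supernumerary subunits of complex I lay close to 0 in median. Most genes of the table were also lower in VE than in ICM, and 30.9% of all genes were at least 2-fold lower. Uqcrc1, a core subunit of complex III, was at 63.9 FPKM in VE against 259 in ICM (-2.01), 179 in ExE (-1.47) and 167 in Epi (-1.37). Atp5a1 was at 209 FPKM in VE against 752 in ICM (-1.84) and 563 in ExE (-1.42). Atp5b was at 451 FPKM in VE against 1447 in ICM (-1.68) and 1206 in ExE (-1.42). Ndufs1 was at 24.5 FPKM against 66.4 in ICM (-1.40), 58.9 in ExE (-1.23) and 55.1 in Epi (-1.14), and Ndufa10, a matrix-side subunit of complex I, at 60.3 against 190 in ICM (-1.64). Atp5c1, the gamma shaft of F1, was at 181 FPKM against 444 in Epi (-1.29), and Atp5sl at 8.17 against 29.0 (-1.71). The assembly factor Ndufaf1 was at 10.8 FPKM against 25.9 in ExE (-1.19). In the other direction, Ndufb11 was at 147 FPKM in VE against 53.0 in Epi (1.45).

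These VE comparisons share the VE column. By role, the 5 F1 members had medians of -1.06 against ICM, -1.10 against Epi and -1.15 against ExE. Against Epi 2 of the 5 were higher in VE, Atp5d (218 against 194 FPKM) and Atp5e (198 against 161). The 4 peripheral stalk members had -0.75, -0.29 and -0.38, and the 7 core subunits of complex I had -1.17, -0.70 and -0.65, with all 7 lower in each. The 24 supernumerary subunits of complex I measured in the first 2 had -0.05 and 0.06, and the 26 measured against ExE had -0.07. At least 2-fold lower than in ICM were 3 of the 24 and 1 of the 3 small subunits of complex III, Uqcr10 (600 against 287 FPKM). Over all members the median against ICM was -0.47, and that of all genes was -0.47 as well: members as a whole stood with other genes, and the roles stood apart from each other. At least 2-fold lower in VE than in ICM were 15 members, where 30.9% of all genes were, and 1 was higher (16.6%), Atp5l, listed at 0 in ICM. The 15 became 6 with each column scaled to the same sum, 4 relative to all genes and 7 relative to genes of the same length class. Against ExE 16 were lower (26.6% of all genes) and 0 higher (9.77%), and the 16 became 9, 6 and 6 under the same changes. Of the 16, 10 were above 0 in both columns, where 24.5% of such genes were lower. Against Epi 7 were lower (18.7%) and 2 higher (17.7%), Ndufb11 and Atp5l, which is listed at 0 in Epi. Scaling each column to the same sum turned the median over members above 0 against Epi (0.02) and against ExE (0.16). VE has the lowest sum of the E6.5 columns, 334639 FPKM against 369461 in Epi and 446925 in ExE. Among members, transcript length moved with this result too. Those of 750 bases or shorter had a median of -0.06 in VE over ICM, and those of over 1500 to 2500 bases -1.33. Other genes of those lengths had -0.04 and -0.68, but those longer than 2500 bases had -0.37. Across genes, which are no replicates, log2 ratio and length had a Spearman's rho of -0.38 for members and 0.12 for other genes. Against Epi these were -0.59 and 0.18, and against ExE -0.37 and 0.14. The 13 tricarboxylic acid cycle genes had a median of -1.49 against ICM, with 10 at least 2-fold lower, and the 69 mitochondrial ribosomal protein genes -0.78, with 18 lower. Glycolysis genes stood at 1.31 against ICM, with 8 of 14 at least 2-fold higher, but at -1.47 against Epi, with 11 of 15 lower, and at -1.84 against ExE, with 14 of 18 lower.

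Few members were past 2-fold between ExE and TE or Epi once the genes listed at 0 elsewhere were set aside. Against TE, however, the median over members was -0.22, below the 0.22 of all genes. Of 73 members that met 5 FPKM against TE, 9 were higher (22.6% of all genes) and 2 lower (16.8%), but 2 of the 9 were above 0 in both columns, where 19.4% of such genes were higher. These were the assembly factors Ndufaf4 (7.34 to 19.5 FPKM, 1.29) and Ndufaf2 (29.3 to 67.6, 1.18). The 2 lower were Cox5a (1148 to 447 FPKM, -1.36) and Atp5g1 (603 to 296, -1.02). The 6 measured assembly factors named Nduf had a median of 0.74 (interval over genes, -0.44 to 1.29), against -0.22 over all members and 0.22 over all genes, while 8 complex I assembly factors of other names had -0.09 and none past 2-fold. Against Epi, 7 members were higher (20% of all genes), none of them above 0 in both columns, where 16.2% of such genes were higher, and the 1 lower (6.25%) was Ndufa4l2, at 1.61 against 5.01 FPKM (-1.21).

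In the yolk sac column 53 of the 88 members were listed at 0. Of 68 members measured against VE, 51 were at least 2-fold lower, where 60.2% of all genes were, and 0 higher (8.48%). With the 34 above 0 in both columns the median was -0.997, and 17 of those 34 were lower, against a median of -0.27 and 28.4% lower among the 3316 genes above 0 in both columns. The members with the lowest ratios among them were Atp5h (304 to 33.7 FPKM, -3.14), a peripheral stalk subunit, Cox4i1 (563 to 67.7, -3.04), Ndufv3 (131 to 16.9, -2.89), Ndufb8 (255 to 40.3, -2.63) and Atp5j (362 to 60.9, -2.55). Atp5b (524 FPKM), Cox6c (547) and Uqcrb (377) were the highest of complexes V, IV and III there. It is 1 sample with fewer genes listed than any other, and how far that sets the members' zeros was not tested. Of the primitive blood markers Hba-x, Hbb-y, Klf1 and Alas2 were listed at 0, and Hbb-bh1, an embryonic globin, was at 313 FPKM.

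In Xp XRRa KO morulae the members were lower than in control female morulae. Cox4i1, the main regulatory subunit of complex IV, was at 919 FPKM in control males, 1154 in control females and 603 in the KO column. Atp5g1 was at 571, 739 and 381 FPKM. The lowest ratios were those of small subunits: Atp5e, the epsilon subunit of the F1 stalk, at 225 FPKM in control females and 91.7 in KO (-1.29), Ndufa2 at 204 and 85.5 (-1.25), Ndufa13 at 125 and 54.0 (-1.19), Cox6b2 at 28.1 and 11.9 (-1.18) and Uqcrq at 348 and 153 (-1.18). Control males stood with control females for each of these, at 242, 208, 132, 24.4 and 366 FPKM in the same order. Ndufs1 was the exception among core subunits, at 31.7 FPKM in control males, 24.9 in control females and 43.4 in KO (0.78).

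Of 67 measured members 61 were lower in KO than in control females, with a median of -0.70 (interval over genes, -0.78 to -0.59) against 0.05 for all genes. By the 2-fold rule 9 were lower, where 3.52% of all genes were, and 0 higher (4.28%). Medians by complex were -0.77 for complex I, -0.48 for III, -0.69 for IV and -0.72 for V, while the 5 assembly factors named Nduf had 0.14 and the 8 of other names 0.04. Members took 4.68% of FPKM in control males, 4.69% in control females and 3.38% in KO. In the wild-type female morulae of the stage table, which was normalized separately, they took 3.10%, less than in KO. A level as low as that of KO was thus also found in morulae without the deletion. Transcript length moved with this result. Across the 5306 other genes with a length, the log2 ratio and the length had a Spearman's rho of 0.47, and across the 65 members 0.52, correlations across genes, which are no replicates and share the columns. The 169 other genes of 750 bases or shorter had a median of -0.66, against -0.78 for the 27 members of that length. Relative to other genes of the same length class the median over all members was -0.19, and 2 members were at least 2-fold lower. With each column scaled to the same sum the median was -0.48, and 3 members were at least 2-fold lower. The 70 mitochondrial ribosomal protein genes had -0.37, none of them past 2-fold, and the tricarboxylic acid cycle genes 0.07. The 4 KO samples and the 3 controls enter as 1 column each, so the deletion cannot be told apart from whatever else differed between the pools.

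**Figure D3:**
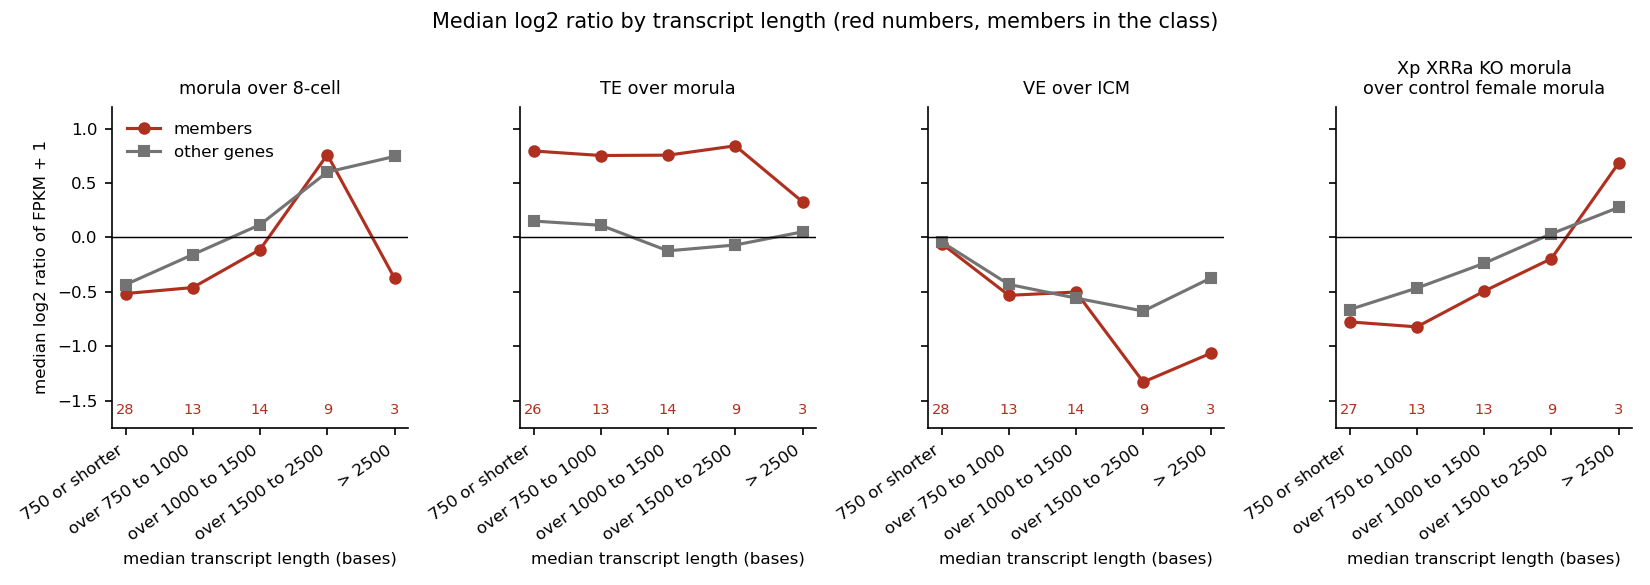
Median log2 ratio of FPKM plus 1 of members (red) and of other genes (grey) in 5 classes of transcript length, for 4 comparisons, with the number of members in each class in red. In morula over 8-cell and in KO over control female, members and other genes are both below 0 in the shortest class (-0.78 and -0.66 in KO). Members lie below other genes in each class up to 1500 bases of both, with -0.82 against -0.47 at over 750 to 1000 bases in KO. At over 1500 to 2500 bases they lie above in morula (0.76 against 0.60) and below in KO (-0.20 against 0.03). The class longer than 2500 bases holds 3 members. In TE over morula members lie above (0.80 against 0.15 in the shortest class).

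Control female and control male morulae differed little except on the X. The median over 67 members was -0.01 against -0.09 for all genes, so that relative to all genes it was 0.08, and 0 members were at least 2-fold higher (2.73% of all genes) or lower (3%). The 3 members with the highest female-to-male ratios were the 3 on the X chromosome. Ndufa1, a small membrane subunit of complex I, was at 153 FPKM in females and 88.1 in males (0.79). Cox7b was at 158 and 94.9 FPKM (0.73), and Ndufb11 at 132 and 87.3 (0.59). For Ndufa1 the maternal allele gave 81.9 FPKM in females and 88.1 in males, and the paternal allele 70.8 and 0. The female excess of Ndufa1 thus came with its paternal allele. Cox7b had 115 FPKM from the maternal allele in females against 94.5 in males, and 42.3 from the paternal allele against 0.366.

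The genes Atp5g1, Atp5g2 and Atp5g3 encode the same mature c subunit behind different import sequences, and their proportions differed between stages. Atp5g1 was at 623, 480, 512 and 603 FPKM in 8-cell, morula, ICM and TE, and at 333, 244 and 296 in Epi, VE and ExE. Atp5g2 was at 49.3, 132, 322 and 345 FPKM in the first 4 and at 445, 370 and 409 in the E6.5 columns. Atp5g3 was at 60.6, 96.9, 309 and 389, then at 272, 487 and 398. Atp5g1 thus gave 85.0% of the summed FPKM of the 3 genes in 8-cell, 67.7% in morula, 44.8% in ICM and 45.1% in TE. At E6.5 it gave 31.7% in Epi, 22.2% in VE and 26.8% in ExE. Atp5g2 was the largest of the 3 in Epi (42.4%) and ExE (37.1%), and Atp5g3 in VE (44.2%). In the morula table Atp5g1 gave 58.5% in control males, 68.6% in control females and 64.4% in KO. The 3 genes and their processed copies share coding sequence, and how reads that fit more than 1 of them were counted is not given, so the split between them carries that uncertainty.

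**Figure D4:**
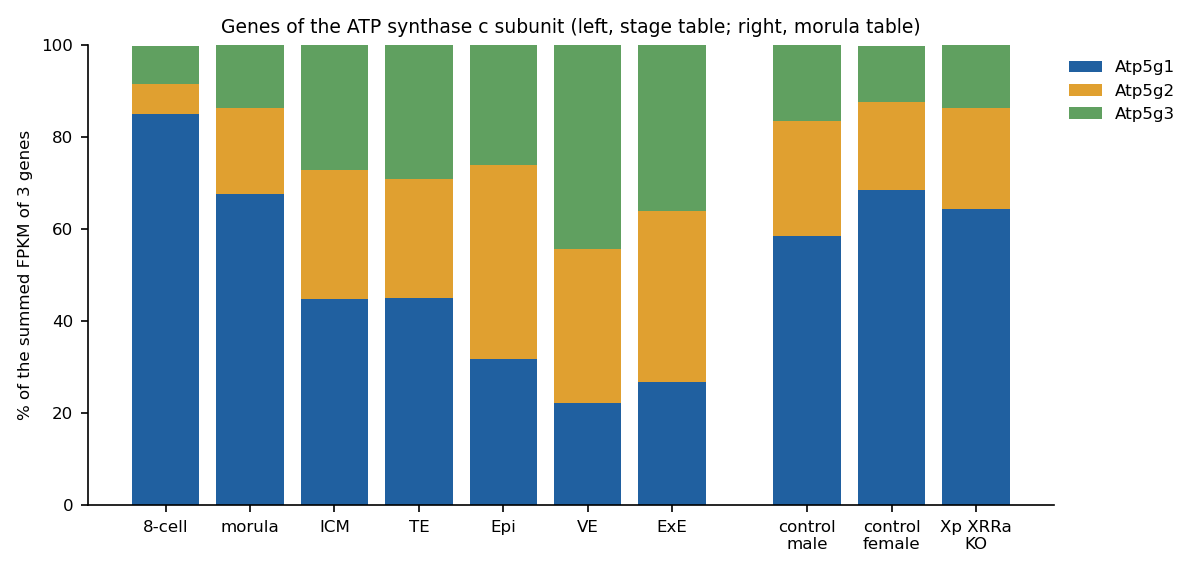
Share of each of the 3 c-subunit genes in their summed FPKM (stacked bars, percent) by column, with the stage table left and the morula table right; yolk sac is left out because Atp5g1 and Atp5g3 are listed at 0 there. Atp5g1 is 85.0% of the sum in 8-cell and between 22.2% and 31.7% in the E6.5 columns.

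The promoters are shown because the 3 genes make the same protein at different levels. The 150 bases before the annotated start follow, from RefSeq on GRCm38.p6, at chr11:96075632-96075781 (Atp5g1), chr15:102671048-102671197 (Atp5g2) and chr2:73911327-73911476 (Atp5g3), all on the minus strand. Capitals mark a match to the palindromic core bound by NRF1 (GCGCA, any base, GCGC), a regulator of mitochondrial genes.
Atp5g1: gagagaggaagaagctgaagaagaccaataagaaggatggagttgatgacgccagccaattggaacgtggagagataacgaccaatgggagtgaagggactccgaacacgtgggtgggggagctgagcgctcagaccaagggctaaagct
Atp5g2: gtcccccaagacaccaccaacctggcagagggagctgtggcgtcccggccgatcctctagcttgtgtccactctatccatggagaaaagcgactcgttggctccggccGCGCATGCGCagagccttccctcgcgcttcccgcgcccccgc
Atp5g3: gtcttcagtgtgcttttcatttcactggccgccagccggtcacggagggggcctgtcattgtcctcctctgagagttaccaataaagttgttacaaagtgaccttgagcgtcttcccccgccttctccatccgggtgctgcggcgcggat
The match in Atp5g2 lies 42 bases before the start. Atp5g3 has its match 13 bases after the start, outside the stretch shown, and it also holds TGACCTT, the reverse of the motif AAGGTCA of estrogen-related receptors, 52 bases before the start. In Atp5g1 neither was found, and the 250 bases before its start hold CCAAT or its reverse ATTGG at 5 positions, 92 and 95 bases before the start in overlap.

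Of the 88 members 73 had a promoter in the RefSeq table, with 79 promoters in all, each of 250 bases before and 50 after the start. The NRF1 core, searched on both strands, was found in 22.8% of member promoters, against 4.6% of all 32851 promoters and 11% of the 8561 promoters of genes at 5 FPKM or more. AAGATGGC, a motif of YY1, was found in 15.2% of member promoters, against 2.75% of all and 5.06% of those of expressed genes. It lay 3 to 88 bases from the start and in 9 of 12 cases after it. CCGGAAG, bound by ETS factors such as GABP, was found in 19.0%, against 8.86% and 19.5%, so its share was that of expressed genes. AAGGTCA was found in 8.86% against 4.72% and 3.29%, GGGCGG in 41.8% against 35.7% and 64.1%, and CCAAT in 41.8% against 37.4% and 38.9%. A match is a run of letters and not a measured binding site.

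Complex IV has subunits with tissue isoforms, and these were low beside their ubiquitous counterparts. Cox7a1 and Cox8b, the isoforms of heart and muscle, were listed at 0 throughout, and Cox6a2, another of them, reached 0.559 FPKM in TE, against 648 for Cox6a1. Cox4i2, a lung and hypoxia isoform of Cox4i1, was at 6.13 FPKM in 8-cell and 3.48 in morula and at 1.03 or less in every other stage column, while Cox4i1 was between 563 and 1264 outside yolk sac. Cox7b2 and Cox8c, testis isoforms, were at 5.22 and 0.679 FPKM in 8-cell, Cox8c was at 0 elsewhere, and Cox7b2 did not exceed 1.08 in the other stage columns. Cox6b2, also known from testis, was between 2.17 and 7.37 FPKM in the stage columns but at 24.4 in control male, 28.1 in control female and 11.9 in KO morulae. The morula column of the stage table had 2.17, and the tables were normalized separately. Cox6b1, its ubiquitous counterpart, is among the genes listed only in ExE, so the pair cannot be compared.

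The alleles of autosomal members were close to balance. The paternal share, the paternal FPKM over the total at 1 FPKM or more, had a median over autosomal members of 47.0% in 8-cell (67 members), 48.2% in morula, 49.0% in ICM and 49.5% in TE. It was 48.9% in Epi, 49.5% in VE and 48.6% in ExE, and 49.4%, 49.7% and 49.5% in control male, control female and KO morulae. All autosomal genes had 46.8% in 8-cell and 48.8% in TE, so the members stood with them. In 10 columns, all but yolk sac, 65 autosomal members had a share, and 53 of them had a median between 40 and 60%, which is 81.5%, against 81.7% of 5332 autosomal genes.

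Single members kept the same side in all 10 columns. Atp5g1 was almost entirely maternal, with a share from 0.515% (ExE) to 2.49% (control female) and a paternal level of 1.27 to 18.4 FPKM beside 243 to 720 from the maternal allele. A gene listed from 1 allele in every stage, tissue and sex shows no more than that: C57BL/6N and maternal cannot be told apart. How reads were assigned to alleles, or counted where they fit several c-subunit genes, is not given. The part of this in the low paternal level of Atp5g1 was not tested. Atp5g2 was mostly paternal, from 66.5% (Epi) to 88.3% (ExE), while Atp5g3 lay between 47.7 and 54.2%. The c-ring genes thus covered the range from nearly all maternal to mostly paternal. Atp5e was between 22.6 and 31.5%, Uqcrb, a small complex III subunit, between 15.3 and 37.3%, and Cox7a2l, which links complexes III and IV, between 28.5 and 38.4%. Cox7c (55.3 to 74.6%), Ndufa11 (59.0 to 69.6%) and Ndufb4 (50.9 to 65.4%) were above 50% in all 10. In all, 12 members were below 50% in every column, which is 18.5% of the 65 against 10.9% of autosomal genes, and 7 were above, 10.8% against 5.59%. Members are more abundant than most genes, and the part of level in these percentages was not tested. Uqcrb in 8-cell (15.3%) and control female morulae (18%), Ndufa7 in control male morulae (19.4%) and Ndufb5 in control female morulae (12.4%) were at 20% or less at levels of 83.6 FPKM or more.

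**Figure D5:**
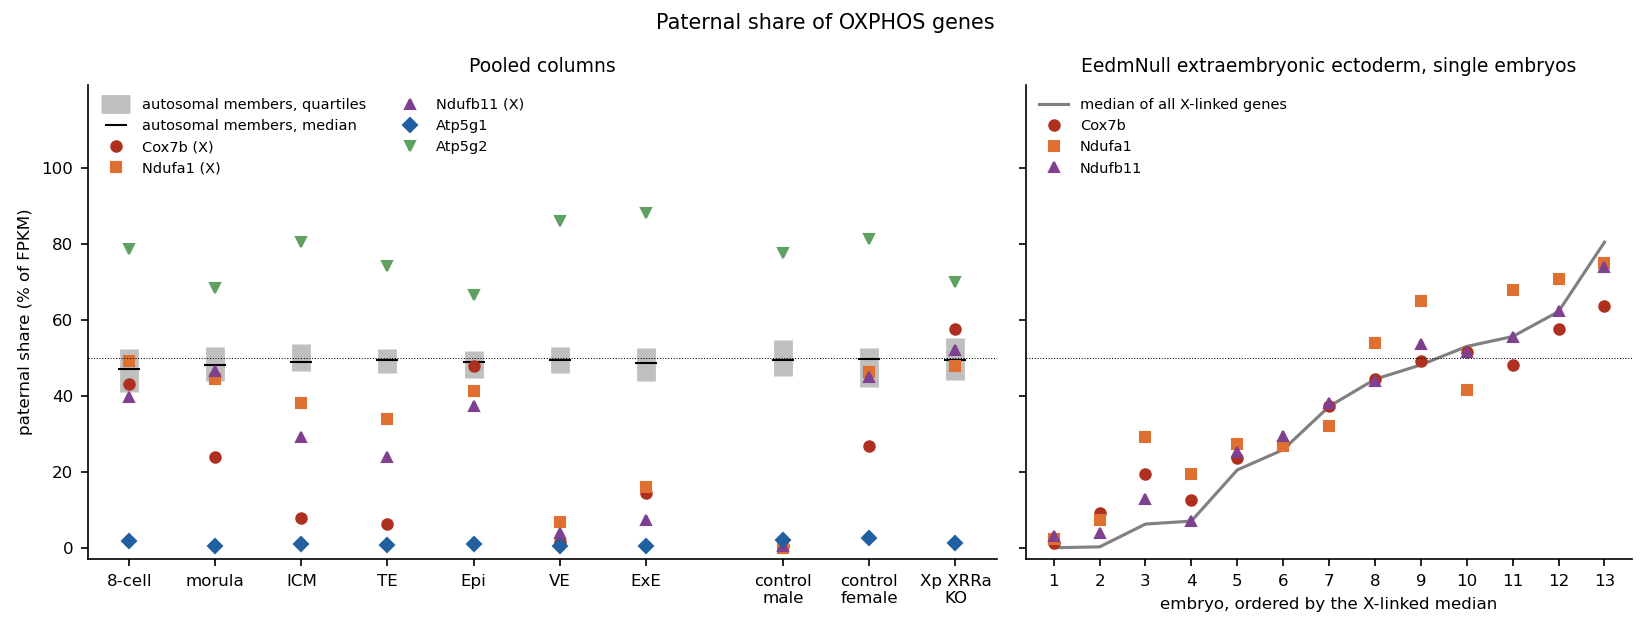
Left, paternal share in percent of FPKM by pooled column for the X-linked members, Atp5g1 and Atp5g2, with the median and quartiles of all autosomal members. Right, shares of the X-linked members in 13 single EedmNull ExE embryos, ordered by the median share of all X-linked genes (line), from 0% to 80.5%; the symbols follow the line, and the order is by that median and not by replicate.

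On the X chromosome the members had low paternal shares from different columns on. Cox7b was at 43.1% in 8-cell, 23.9% in morula, 7.74% in ICM and 6.19% in TE. Ndufa1 was at 49.3, 44.4, 38.0 and 33.9% in the same columns and Ndufb11 at 39.6, 46.7, 29.3 and 23.8%. The medians of all X-linked genes there were 42.6, 26.1, 8.49 and 4.45%, so Cox7b lay close to them and the complex I genes lay above from morula on. In VE all 3 were low, at 1.45, 6.73 and 3.94% (Cox7b, Ndufa1 and Ndufb11), as was the chromosome (0.607%), and in ExE at 14.4, 16.0 and 7.38% (4.74%). In Epi, a tissue of random X inactivation, they were at 47.9, 41.3 and 37.3% (47.8%).

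In the stage columns other than yolk sac, the totals of Cox7b and Ndufb11 were not lowest where their paternal share was. The maternal allele of Cox7b went from 41.3 FPKM in 8-cell to 60.5 in morula, 204 in ICM and 183 in TE, while the paternal allele went from 31.2 to 19.0, 17.1 and 12.1. The total of Cox7b in TE, 195 FPKM, was thus above that in 8-cell, 72.5. In VE Ndufb11 had 141 FPKM from the maternal and 5.77 from the paternal allele, a total of 147 against 160 in 8-cell. In KO morulae the shares of Cox7b, Ndufa1 and Ndufb11 were 57.6, 47.9 and 52.1%, against 26.8, 46.4 and 45.1% in control females and 0.386, 0 and 0.433% in control males. The KO share stood close to that of control females for Ndufa1 and well above it for Cox7b, beside medians of all X-linked genes of 54.2% in KO and 29.3% in control females. The level of Cox7b was nevertheless lower in KO (108 FPKM) than in control females (158): its maternal allele was at 45.7 against 115 FPKM and its paternal allele at 62.1 against 42.3. Control males had both the lowest share and the lowest total of Cox7b in the morula table (94.9 FPKM).

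In the 13 EedmNull embryos the paternal shares of the 3 genes varied widely, over a narrower range than the chromosome's median. The paternal share of Cox7b had a lowest value of 1.17%, a median of 37.3% and a highest of 63.7%. Ndufa1 had 2.33, 32.1 and 75%, and Ndufb11 3.08, 38.2 and 74.0%. The embryo median over all X-linked genes ranged from 0 to 80.5%, with a median of 37.2%. Total levels varied much less: Cox7b had a mean of 296 ± 38.7 FPKM (SD, n = 13), Ndufa1 105 ± 25.3 and Ndufb11 101 ± 13. Shares above 50% were found in 3, 5 and 5 of the 13 embryos.

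The paternal allele was not called lower for any of the 3. The mean log2 ratio of paternal to maternal FPKM plus 1 was -1.30 ± 0.48 for Cox7b (SE; adjusted p = 0.0792 by limma over 300 X-linked genes; paternal lower in 10 of 13 embryos). It was -0.85 ± 0.49 for Ndufa1 (adjusted p = 0.148 by limma; 8 of 13) and -1.23 ± 0.51 for Ndufb11 (adjusted p = 0.0854 by limma; 8 of 13). Of the 300 genes 9% were called lower and 0.333% higher. Relative to each embryo's median over X-linked genes the values were -0.54 ± 0.24 (adjusted p = 0.115 by limma), -0.08 ± 0.25 (adjusted p = 0.812) and -0.47 ± 0.22 (adjusted p = 0.119), with 12.3% of genes called lower and 11.3% higher. An exact permutation test by sign flips called Cox7b lower on this relative scale (adjusted p = 0.0110, lower in 12 of 13 embryos). With a pseudocount of 0.1 its relative value was 0.01, so the direction depends on that choice. By paternal share, which takes no pseudocount, Cox7b lay above the embryo's median over X-linked genes in 8 of 13 embryos. Wild-type ExE at E6.5 had shares of 14.4, 16.0 and 7.38% for the 3 genes, in a table normalized separately and in pooled samples of another day, and the difference from the EedmNull embryos was not tested.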

How the data were processed

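Smart-seq2 libraries of 42 mouse samples enter 3 tables, one of 24083 genes by stage and tissue, one of 23986 genes in morulae and one of 1052 X-linked genes in single EedmNull embryos. The values deposited by the authors are FPKM for each allele, pooled over the samples of a group in the first 2 tables. Trim Galore 0.6.4, HISAT2 2.2.0, StringTie 2.1.1 and the mouse build mm9 are named per the submitters' processing notes. How reads were assigned to alleles, how reads that fit several genes were counted and how samples were pooled is not given in the sources used here. FPKM hold no read counts, so no counting interval is given, and nothing says that the samples of a group came from separate litters.

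Lines that name no gene (5 summary lines) were left out. Members were found by symbol, and the alleles were summed. For each of 13 comparisons, log2 ratios used a pseudocount of 1, which shrinks the ratio of low genes, over genes that reached 5 FPKM in either column. A gene counts as higher or lower at a ratio of 2 or more. Medians are set beside all genes of the same table, with a 95% order-statistic interval that runs over genes and not over embryos. The lists beside the members (tricarboxylic acid cycle, mitochondrial ribosomal proteins, complex II, assembly factors, nuclear regulators, mitochondrial DNA maintenance, pyruvate entry, glycolysis) hold genes fixed by name. The members, lists and tests were chosen with earlier results of these data known. Named are up to 5 members per comparison and direction with the largest ratio among those above 0 in both columns, the highest and lowest of each complex, the X-linked members, the tissue isoforms and the c-subunit genes; other members are examples of their role, and 1 member that the rule names is not reported here. Paternal shares needed a total of 1 FPKM. In the EedmNull table, limma 3.58.1 tested the log2 ratio of paternal to maternal FPKM plus 1 against 0 over X-linked genes with a mean total of 1 FPKM or more, with Benjamini-Hochberg adjustment and a threshold of 0.05. The procedures were tested on simulated data. Transcript lengths come from a GRCm38 annotation and promoters from RefSeq on GRCm38.p6, matched by symbol, since the build differs from that of the files. Python 3.11.15 (numpy 2.4.6, pandas 2.3.3, scipy 1.17.1, matplotlib 3.10.9) and R 4.3.3 were used. Other pseudocounts, level minimums, scalings and allele filters were tried, and the closing section gives their effect.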

Additional observations from a re-analysis of the deposited data

How the results depend on the processing

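With other pseudocounts, level minimums, scalings and allele filters, 61 recomputed median ratios kept their direction and stayed within the interval over genes, 10 moved past it and 7 turned. With each column scaled to the same sum, the medians over members were -0.54 in morula over 8-cell, 0.0244 in VE over Epi, 0.16 in VE over ExE, -0.0622 in ExE over Epi, -0.48 in KO over control female and -0.0672 in control female over male. Centred on all genes they were -0.88 in morula over 8-cell, 0.52 in ICM over morula, -0.00901 in Epi over ICM, -0.000885 in VE over ICM, -0.44 in ExE over TE, 0.0809 in VE over Epi, 0.24 in VE over ExE, -0.0818 in ExE over Epi, -1.10 in yolk sac over VE (-3.09 as deposited) and 0.0796 in control female over male. With both alleles above 0 in both columns, yolk sac over VE had -1.02. The directions of VE over Epi, VE over ExE, ExE over Epi and control female over male thus depend on the scaling. TE over morula kept its direction and stayed within its interval under these settings.

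Further alternatives were chosen after seeing the data. With transcripts of at least 1000 bases the medians were 0.17 in morula over 8-cell, -0.86 in VE over ICM, -0.75 in VE over Epi, -0.84 in VE over ExE, -0.28 in KO over control female and -0.0734 in control female over male. Centred on other genes of the same length class they were 0.51 in ICM over morula, -0.24 in ICM over TE, -0.10 in VE over ICM, -0.46 in ExE over TE, 0.11 in VE over Epi, 0.0466 in VE over ExE, 0.0784 in ExE over Epi, -0.38 in yolk sac over VE and -0.19 in KO over control female. With members above 0 in both columns, yolk sac over VE had -0.997. The cause of these shifts was not tested.

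Counts of members past 2-fold moved by over 1.5 times in 41 recomputations with these settings and in 41 with those chosen after seeing the data. Those lower in morula than in 8-cell were 3, then 11 with scaled columns and 27 centred on all genes. Those lower in VE than in ICM were 15, then 6, 4 and, within length classes, 7. Those lower in VE than in ExE were 16, then 9, 6 and 6. Those higher in ICM than in morula were 14, then 9 centred on all genes and 7 within length classes. Those lower in KO were 9, then 3 with scaled columns and 2 within length classes. Those lower in yolk sac were 51, then 30 within length classes and 13 with both alleles above 0.

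Summed paternal over summed total FPKM gave shares of 46.0% in morula, 47.3% in TE, 47.3% in VE and 48.0% in control male morulae. Without Atp5g1, a choice made after seeing the data, none of the 11 shares moved past its interval. In EedmNull embryos, relative values with a pseudocount of 0.1 were 0.00815 for Cox7b, 0.45 for Ndufa1 and 0.0467 for Ndufb11, and Ndufa1 had 0.23 at a mean total of 5 FPKM. Sign flips called 1 of the 3 genes on the relative scale, where limma called 0. No paired analysis was possible because the stage and morula tables hold 1 pooled column per group and allele and the EedmNull table holds 1 group, so that no samples can be paired across groups. Within an EedmNull embryo the alleles are paired by the ratio itself. Likewise no replicate could be left out of a pooled column. Unknown depth limits every value near 0.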
